A study of Homo sapiens with 18 samples.

Results

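The comparison sets promoter cells against U1U2 cells in the absence of progestin, in 3 libraries of each, 6 of the 18 libraries of the series. The members were the libraries whose labels name the promoter guide or the U1U2 guides together with vehicle, and every gene with enough reads entered the comparison. All cells were THESC, an established line of immortalised human endometrial stromal cells, the supporting fibroblast-like cells of the lining of the uterus. Both lines carry guide RNAs that activate the cells' own progesterone receptor gene, PGR. The labels call U1U2 cells PGRA/B-equivalent and promoter cells PGRB-dominant, after the receptor isoforms. Cells with a non-targeting guide (NT cells, labelled WT) are the control line, and each line was also treated with the synthetic progestin medroxyprogesterone acetate (MPA, 1 µM), again in 3 libraries per group. All lines were grown under blasticidin, spent 24 hours in low serum, and the vehicle groups then received 0.01% ethanol in medium with 2% charcoal-stripped serum for 72 hours, a serum from which most steroid hormone has been removed. The labels do not say whether each engineered line is 1 clone or a pool, nor whether replicates were separate cultures, so a difference between the lines cannot be told apart from a difference between the cells they were founded from, and the p-values reflect the variation among these libraries alone.

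The progesterone receptor is a transcription factor of the nuclear receptor family that moves onto DNA when it binds a progestin. PGRA and PGRB are read from the same gene from different start sites, PGRB being the longer protein with an additional activation domain at its amino end, and the isoforms regulate overlapping but distinct genes. In the endometrium, progesterone acts on stromal cells to turn them into decidual cells. Without ligand the receptor is held by chaperones, although part of it can still reach chromatin. The counts are sums over each gene, and cannot separate the isoforms.

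The 6 libraries held 16.8 to 33.4 M counts, of which mitochondrial genes took 1.63% to 2.53%. The lines did not separate on the largest axis of variation: in a principal component analysis of the 6 libraries the first component (39.1% of the variance) set U1U2 replicate 1 and promoter replicate 3 on one side and the other 4 libraries on the other. Stromal markers were abundant, with 26 of 28 at 100 counts or more in every library, although the stromal transcription factor TCF21 had none. Of the listed markers of other cells, 10 of 18 epithelial, 10 of 14 endothelial and 13 of 16 leukocyte genes stayed under 10 counts in all 6 libraries. PECAM1 (endothelial) had 0 to 4 counts, CDH1 (epithelial) 0 to 6 and CD3E (T cell) 0. By contrast KRT18 and KRT19, keratins of epithelium, reached at least 175 and 331 counts. The leukocyte marker PTPRC had 74 to 143 counts, most of the counts of its list. The summed level of the epithelial list was 38.91 to 53.91 CPM (counts scaled to the size of each library) in promoter cells and 35.29 to 46.57 in U1U2 cells. That of the endothelial list was 74.44 to 76.82 and 67.51 to 75.80, nearly all of it from TEK, and that of the leukocyte list 4.926 to 5.343 and 4.217 to 4.976. Their part in the results was not tested.

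PGR, the activated gene (ENSG00000082175, chr11:101029624-101130524 on GRCh38, minus strand), stood at 433, 475 and 395 CPM in promoter replicates 1 to 3 and at 674, 531 and 584 in U1U2 cells. All promoter libraries lay below all U1U2 libraries, and both lines lay above the NT libraries, at 120, 153 and 147 CPM. The log2 fold change of promoter over U1U2 was -0.46 ± 0.12 (standard error, SE) and missed the threshold by edgeR's quasi-likelihood test (Benjamini-Hochberg adjusted p = 0.107). PGR passed without the filter on low counts (-0.46, adjusted p = 0.00738), with DESeq2 (adjusted p = 0.0421) and with offsets for GC content and length (-0.35, adjusted p = 0.0163), an alternative added after seeing the data.

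Few genes passed the threshold between the lines. Of 15558 genes tested, 122 passed an adjusted p of 0.05 (0.784%), with 82 higher (0.527%) and 40 lower (0.257%) in promoter cells. An unadjusted p under 0.05 by the same test was found for 1349 genes (8.67%). Most differences were below 2-fold: 24 of the 122 genes reached it, 19 of them higher and 5 lower. The median log2 fold change was 0.617 among the higher genes and -0.545 among the lower genes, against 0.00688 over all genes. All 122 genes had no overlap between the 3 promoter and the 3 U1U2 libraries. Over all genes tested, 6.09% had every promoter library above every U1U2 library and 6.99% had every one below. Just inside the threshold lay NCEH1 (0.35, adjusted p = 0.0474), a lipid hydrolase, and just outside it lay the kinetochore gene NUF2 (0.63, adjusted p = 0.0515). The call on NCEH1 was lost when any 1 of the 6 libraries was left out (adjusted p up to 0.276).

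**Figure D1:**
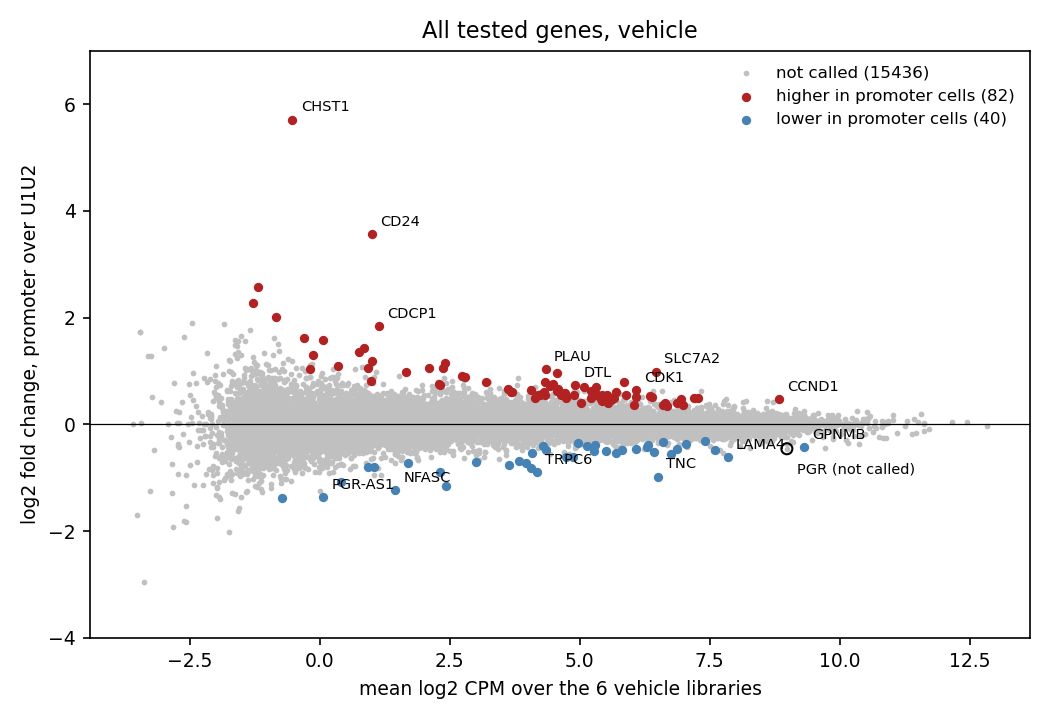
Log2 fold change of promoter over U1U2 cells in vehicle (vertical axis) against the mean log2 CPM of the 6 libraries (horizontal axis), 1 point per tested gene. Red points are the 82 genes higher and blue points the 40 genes lower in promoter cells; grey points were not called, and PGR (ringed) is among them.

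How many genes passed depended strongly on the libraries and on the model, which shared its estimate of spread over all 6 groups of the series. Leaving out any of the 6 libraries left 39 to 64 genes, and fitting the promoter and U1U2 vehicle libraries alone left 11. So did leaving out together U1U2 replicate 1 and promoter replicate 3, the libraries set apart by the first component. All 122 genes kept their direction in each of these refits. Of the 122 calls 26 held in all 6 refits without 1 library and 40 in none of them; the losses are given with the genes. The 11 genes of the fit of 2 groups were CHST1, CD24, CDCP1, DTL, NRIP3, SLC7A2, ACSF2 and PLAU, higher in promoter cells, and IGSF10, TNC and TRPC6, lower. CHST1, CD24, CDCP1, DTL, NRIP3, SLC7A2 and TRPC6 also passed in every other alternative that was run.

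The largest difference was in CHST1 (ENSG00000175264, chr11:45648877-45665622, minus strand), a sulfotransferase that adds sulfate to keratan sulfate chains. It had 3.74, 2.70 and 3.51 CPM in promoter cells and 0.0921, 0.0625 and 0.0320 in U1U2 cells. The gene was near silent in U1U2 cells, with 5 counts over the 3 libraries against 288 in promoter cells, and equally low in NT cells (0.0476 to 0.0837 CPM). The ratio of pooled CPM was 58.5, with a 95% counting interval of 24.8 to 182, which covers counting error only, and the fitted log2 fold change was 5.71 ± 0.33 (adjusted p = 3.07e-08). CHST1 fell outside the minimum level of the naming rule for the largest changes and is named because it was also called in MPA.

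CD24, a small glycoprotein anchored in the membrane that is used as a marker of epithelial progenitors, showed the next largest difference among genes of moderate level. Its libraries stood at 7.45, 6.65 and 5.82 CPM in promoter cells and at 0.369, 0.469 and 0.799 in U1U2 cells. NT cells, at 0.905 to 1.59 CPM, lay between the lines but far nearer to U1U2 cells. The log2 fold change was 3.56 ± 0.33 (adjusted p = 2.43e-05). CD24 has near-identical pseudogene copies, so that the counting could have split its reads. CDCP1, a membrane protein phosphorylated by Src kinases, had 4.65, 3.77 and 3.65 CPM against 0.875, 1.37 and 1.09 (1.83 ± 0.22, adjusted p = 0.000377), and NT cells lay at 1.19 to 1.92 CPM.

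SLC7A2 (ENSG00000003989) was among the more abundant higher genes. It encodes a transporter that brings arginine and lysine into the cell. Its level was 123, 146 and 106 CPM in promoter cells and 63.5, 58.0 and 67.5 in U1U2 cells, with NT cells at 74.1 to 85.8 (log2 fold change 0.98 ± 0.11, adjusted p = 0.000192). NRIP3, named as a nuclear receptor interacting protein, was at 81.9, 73.3 and 74.5 CPM in promoter cells and 41.8, 45.9 and 44.3 in U1U2 cells (0.80 ± 0.07, adjusted p = 2.43e-05). The U1U2 libraries of NRIP3 overlapped the NT libraries (44.4 to 50.2 CPM). RGCC, a regulator of cell cycle kinases first described in the complement response, had 24.2, 29.1 and 26.4 CPM against 14.1, 17.3 and 14.4 (0.79 ± 0.09, adjusted p = 0.000308). For each of these genes the lowest promoter library exceeded the highest U1U2 library.

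Further higher genes were spread over several lists or in none. PLAU, the urokinase that activates plasminogen at the cell surface, was at 31.6, 29.2 and 26.6 CPM in promoter cells and 12.5, 16.3 and 13.8 in U1U2 cells (1.04 ± 0.18, adjusted p = 0.00915), and NT cells spanned 11.7 to 18.7 CPM. Without U1U2 replicate 3 the adjusted p of PLAU was 0.0541. LPAR3, a receptor for lysophosphatidic acid known for its part in embryo spacing in the uterus, had 8.86, 7.97 and 10.1 CPM against 4.79, 4.72 and 4.95 (0.90 ± 0.14, adjusted p = 0.00444). Its NT libraries, at 6.24 to 6.81 CPM, lay between the lines without overlapping either. HLA-DMA, which helps to load peptides onto class II molecules of antigen presentation, was at 6.79, 5.08 and 6.40 CPM against 2.95, 3.40 and 2.53 (1.05 ± 0.15, adjusted p = 0.00405). It was the 1 called gene of 18 tested antigen presentation genes, where 0.527% of all genes were called higher. Its locus overlaps BRD2 on the other strand in the annotation. The mitochondrial acyl-CoA synthetase ACSF2 (0.96 ± 0.17, adjusted p = 0.00923) and the ubiquitin ligase MARCHF3 (1.06 ± 0.16, adjusted p = 0.00435) were higher as well. ADAMTS15, a matrix protease, joined PLAU as the second called member of 35 matrix proteases and inhibitors, against the same 0.527% of all genes. Its level was low, at 1.38 to 1.92 against 0.735 to 0.968 CPM (1.09 ± 0.22). Without 1 library the call on ACSF2 was lost once (without U1U2 replicate 3, adjusted p = 0.0624) and that on ADAMTS15 in 4 of 6 refits (up to 0.148).

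**Figure D2:**
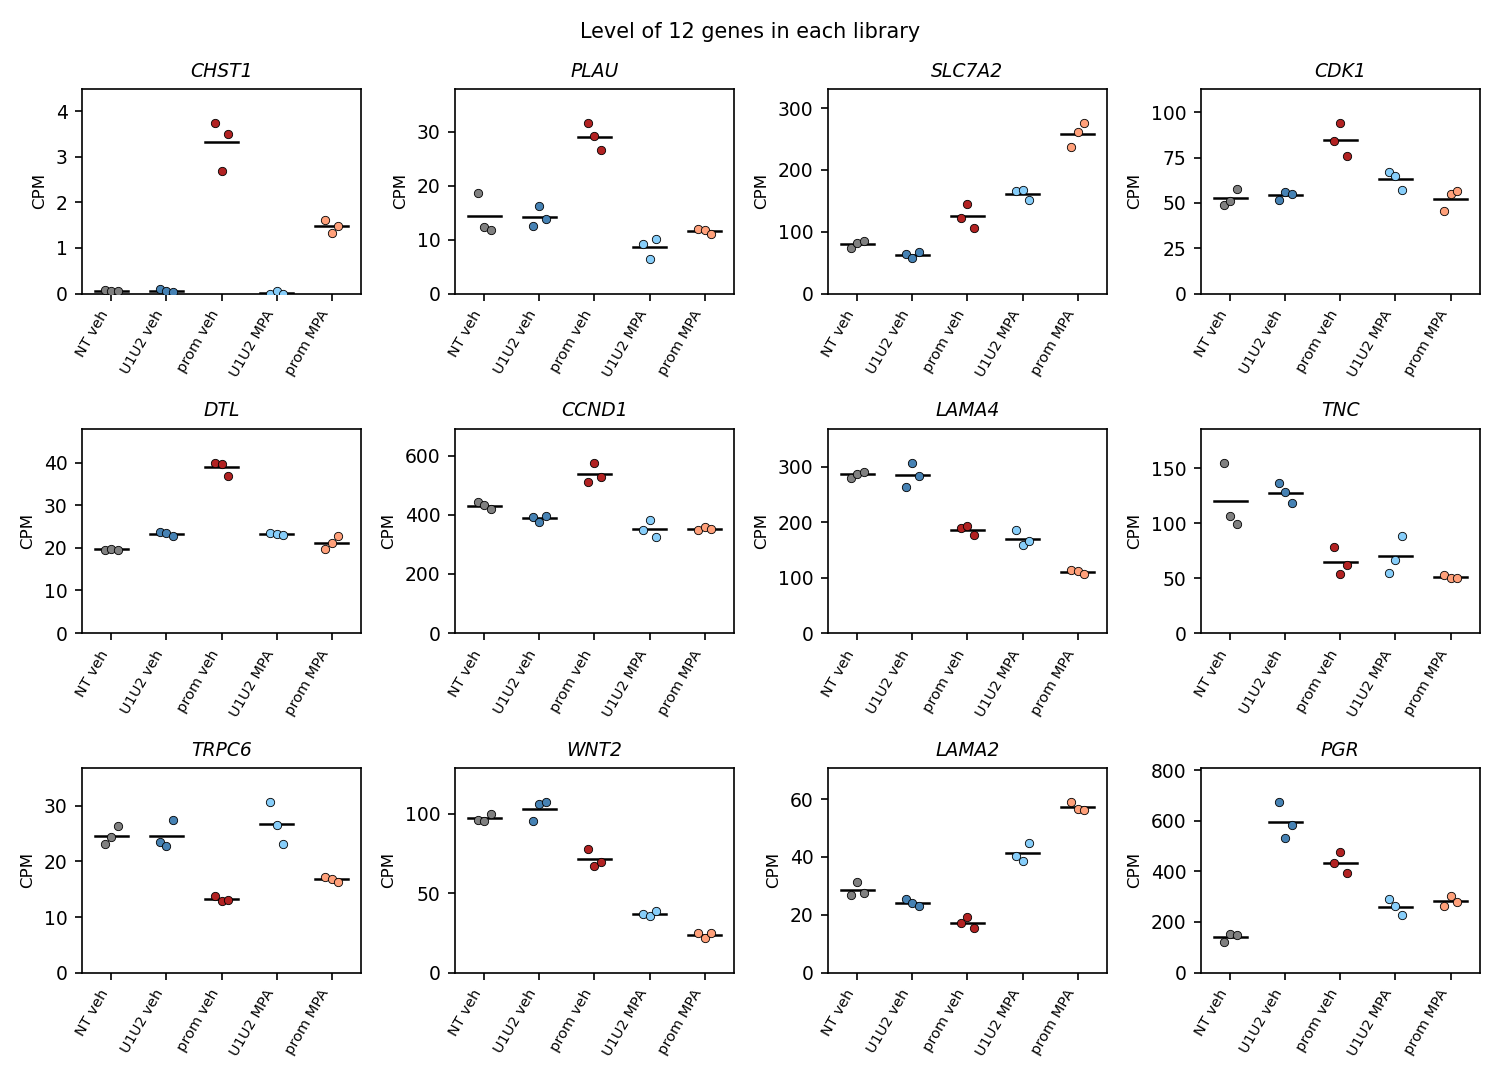
CPM of 12 genes (vertical axes, from 0) in each of 3 libraries (points) of 5 groups, with the group mean as a bar: NT, U1U2 and promoter cells in vehicle (veh) and U1U2 and promoter (prom) cells in MPA. In vehicle the promoter libraries of every gene shown lie wholly above or wholly below the U1U2 libraries; in MPA the 2 lines overlap in CCND1 and PGR.

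The most numerous group of higher genes belonged to the cell division cycle. Cells copy their DNA in S phase with the MCM helicase, loaded by CDC6, and with the nucleotides that ribonucleotide reductase makes; in mitosis CDK1 with its cyclins drives the assembly of the spindle, and the kinetochore checkpoint holds the cell until every chromosome is attached. Of 45 tested genes of mitosis and the spindle, 14 were higher in promoter cells and none lower. All 45 had a positive log2 fold change (0.24 to 0.79, median 0.462), and in 39 all promoter libraries lay above all U1U2 libraries. Of 40 tested genes of DNA replication and S phase, 5 were higher and none lower, all 40 were positive (0.13 to 0.80, median 0.398), and 28 had no overlap. For comparison, 0.527% of all genes were called higher and 6.09% had promoter cells above without overlap.

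CDK1 (ENSG00000170312), the kinase that starts mitosis, was at 83.9, 94.1 and 75.8 CPM in promoter cells and 51.9, 56.2 and 54.7 in U1U2 cells (0.64 ± 0.11, adjusted p = 0.00915), with NT cells at 48.9 to 57.6. Its partner cyclin A2, CCNA2, stood at 104, 103 and 92.8 CPM against 71.8, 68.8 and 69.4 (0.51 ± 0.09, adjusted p = 0.0117). The NT libraries overlapped U1U2 cells in CDK1 and lay below them in CCNA2 (62.9 to 64.2 CPM), and the promoter libraries stood apart in both. CENPA, the histone that marks centromeres, was at 12.7, 12.2 and 10.9 CPM against 7.10, 6.50 and 7.13 (0.79 ± 0.14, adjusted p = 0.00890). MAD2L1, of the spindle checkpoint, was at 48.8, 57.4 and 47.0 CPM against 34.7, 27.6 and 31.6 (0.70 ± 0.12, adjusted p = 0.00915). The other called mitotic genes were the checkpoint kinases BUB1B and TTK, the motors KIF11 and KIF14, the kinetochore gene SPC25, the passenger protein BIRC5, the cytokinesis factor ECT2, and HMMR, PBK and CKAP2L, with log2 fold changes from 0.40 to 0.63. Left out 1 at a time, promoter replicate 2, U1U2 replicate 1 and U1U2 replicate 3 each cost CDK1 its call (adjusted p up to 0.0566), promoter replicate 1 and U1U2 replicate 2 that of CENPA (up to 0.0654), and promoter replicate 2 and U1U2 replicates 2 and 3 that of MAD2L1 (up to 0.0839). CCNA2 lost it in 4 of the 6 refits (up to 0.0824), BUB1B in 5, and the other 9 named last in all 6 (up to 0.236).

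Among S-phase genes CDC6, the helicase loader, had 32.9, 28.4 and 28.6 CPM in promoter cells and 18.01, 20.2 and 18.9 in U1U2 cells (0.66 ± 0.11, adjusted p = 0.00689). RRM2, the regulated subunit of ribonucleotide reductase, had 195, 181 and 178 CPM against 136, 130 and 125 (0.50 ± 0.08, adjusted p = 0.00633). MCM4, a helicase subunit, differed less, at 118, 103 and 109 CPM against 81.5, 89.8 and 84.6 (0.37 ± 0.08, adjusted p = 0.0349). The clamp loader subunit RFC3 (0.55 ± 0.10) and the nuclease EXO1 (0.49 ± 0.10) were the other called members. DTL, which directs the destruction of replication factors after they are used, is in neither list and had 40.0, 39.8 and 36.9 CPM against 23.6, 23.6 and 22.8 and 19.5 to 19.8 in NT cells (0.74 ± 0.08, adjusted p = 0.000162). E2F7, a repressor among the E2F factors that time S-phase transcription, had 30.7, 30.8 and 25.9 CPM against 15.8, 17.6 and 18.2 (0.76 ± 0.12, adjusted p = 0.00633). Cyclin D1, CCND1, which carries growth signals into the cycle and is also a listed target of steroid receptors, was at 511, 576 and 528 CPM against 392, 376 and 396 (0.47 ± 0.07, adjusted p = 0.00503). CDC6, DTL and E2F7 passed in all 6 refits without 1 library. RRM2 was lost without U1U2 replicate 3 (adjusted p = 0.0528), CCND1 without U1U2 replicate 2 (0.0511), RFC3 in 5 of the refits (up to 0.0964), and MCM4 and EXO1 in all 6 (up to 0.232).

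Picked after the calls were seen, 14 more of the 82 higher genes have textbook roles in the cycle, DTL and E2F7 among them, and others such as the kinetochore genes SKA1 and SKA3, the centromere histone chaperone HJURP, the condensin subunit NCAPH and CDK2. With the 19 listed genes they made 33 of the 82, or 40.2%. As the 14 were picked among the calls and no such pick was made over all tested genes, this share has no background. Without 1 library HJURP lost its call in 3 of 6 refits (adjusted p up to 0.0872) and SKA3 in 4 (up to 0.137). NCAPH and CDK2 lost theirs in all 6 (up to 0.226), and SKA1 in none. The summed level of the mitotic list was 3773 to 4205 CPM in promoter cells, 2795 to 3079 in U1U2 cells and 2446 to 2642 in NT cells. That of the S-phase list was 1388 to 1552, 1108 to 1206 and 960.3 to 1035 CPM. In both sums the 3 lines did not overlap, and promoter cells were highest. In bulk RNA a larger share of dividing cells and more RNA of these genes per cell cannot be told apart.

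The number of calls in these lists depended on the fit. With the 2 groups fitted alone no member of either list passed by edgeR, while 43 of 45 and 30 of 40 had an unadjusted p under 0.05. In the main fit these numbers were the same, against 8.67% of all tested genes. For the refits the share of all genes under that unadjusted p was not counted. DESeq2 called 24 and 12, and 158 higher genes in all. Leaving out each library in turn left 1 to 4 mitotic and 1 to 3 S-phase genes, and leaving out U1U2 replicate 1 and promoter replicate 3 together left none (34 of 45 and 19 of 40 at an unadjusted p under 0.05). The medians in the refits without 1 library were 0.424 to 0.507 and 0.327 to 0.484. All mitotic genes stayed positive in each of these fits, and so did all S-phase genes except 1 of 40 without U1U2 replicate 1.

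**Figure D3:**
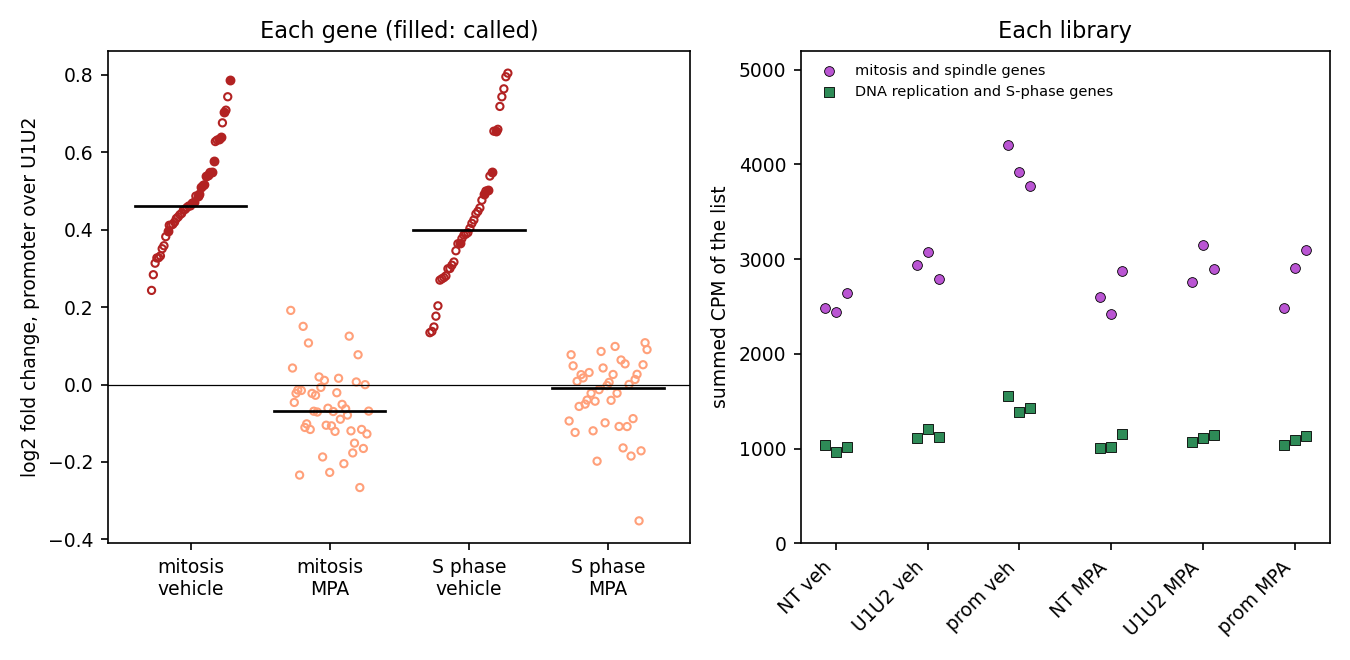
Left, the log2 fold change of promoter over U1U2 cells for each gene of the mitotic and the S-phase list, in vehicle and in MPA, with filled points for called genes and bars at the medians (0.462, -0.0686, 0.398 and -0.00783); genes are spread sideways by their rank in vehicle. Right, the summed CPM of each list in each of the 18 libraries, where the 3 promoter vehicle libraries lie above all the others in both lists.

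Genes of the division cycle share letters in their promoters, which are shown because these genes moved together. The CHR element (TTTGAA or TTCGAA) and the CCAAT box (CCAAT) are typical of mitotic promoters, and an E2F core (GCGGGAA or GCGCGAA) of S-phase promoters. The sequences are the 250 bases before the start of transcription given by RefSeq (GRCh38.p14), 5′ to 3′ on the strand of the gene, in lower case with matches to any of these motifs on either strand in capitals.
CDK1 (chr10:60778081-60778330, plus strand): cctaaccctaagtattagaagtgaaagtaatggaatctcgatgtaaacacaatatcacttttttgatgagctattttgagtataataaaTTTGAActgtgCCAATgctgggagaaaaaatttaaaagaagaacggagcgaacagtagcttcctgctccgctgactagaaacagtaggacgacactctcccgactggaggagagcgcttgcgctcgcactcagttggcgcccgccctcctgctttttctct
BUB1B (chr15:40160819-40161068, plus strand): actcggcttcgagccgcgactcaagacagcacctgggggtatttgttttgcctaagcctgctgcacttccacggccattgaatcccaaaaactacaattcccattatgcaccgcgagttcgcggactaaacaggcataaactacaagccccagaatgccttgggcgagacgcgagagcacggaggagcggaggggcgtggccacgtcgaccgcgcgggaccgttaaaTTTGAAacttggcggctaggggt
CCNA2 (chr4:121823884-121824133, minus strand): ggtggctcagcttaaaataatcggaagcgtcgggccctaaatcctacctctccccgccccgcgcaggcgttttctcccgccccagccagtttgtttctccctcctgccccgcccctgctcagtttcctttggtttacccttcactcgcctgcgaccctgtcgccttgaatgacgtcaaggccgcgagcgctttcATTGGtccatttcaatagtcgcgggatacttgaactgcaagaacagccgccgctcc
CDC6 (chr17:40287629-40287878, plus strand): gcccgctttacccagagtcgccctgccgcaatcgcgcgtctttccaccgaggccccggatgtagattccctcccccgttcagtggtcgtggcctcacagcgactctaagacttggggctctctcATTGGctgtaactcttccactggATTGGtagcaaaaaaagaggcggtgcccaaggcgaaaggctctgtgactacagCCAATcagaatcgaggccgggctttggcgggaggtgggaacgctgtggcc
DTL (chr1:212035498-212035747, plus strand): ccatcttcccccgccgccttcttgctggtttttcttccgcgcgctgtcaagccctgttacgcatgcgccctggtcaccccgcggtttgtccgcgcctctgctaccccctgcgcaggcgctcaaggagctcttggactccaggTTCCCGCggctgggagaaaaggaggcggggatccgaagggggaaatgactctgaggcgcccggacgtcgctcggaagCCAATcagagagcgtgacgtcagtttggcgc
CDK1 held a CHR match and a CCAAT match, BUB1B a CHR match, CCNA2 a CCAAT match, CDC6 3 CCAAT matches, and DTL an E2F match and a CCAAT match.

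RefSeq gave a promoter for 63 of the 82 higher genes, 33 of the 40 lower genes and 11003 tested genes in all. A CHR match was in 27.0% of the higher and 24.2% of the lower promoters, against 10.4% of all. A CCAAT match was in 54.0% of the higher and 18.2% of the lower promoters, against 35.0% of all. An E2F match was in 12.7% and 9.09%, against 11.7%. The half-site AGAACA, of the kind that PGR and related steroid receptors bind, was in 6.35% of the higher and 12.1% of the lower promoters, against 7.54% of all. In the mitotic list 56.8% of 37 promoters held a CHR match, and in the S-phase list 42.9% of 35 held an E2F match. These are matches of letters in a short window, and say nothing of what is bound there.

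Among the 40 lower genes were 5 of the extracellular matrix list. Laminins are the cross-shaped glycoproteins of basement membranes, and the LAMA genes encode their alpha chains. Of 56 tested matrix glycoproteins and proteoglycans, 5 were lower in promoter cells, against 0.257% of all genes, and none was higher: the laminin alpha chains LAMA1, LAMA2 and LAMA4, tenascin C (TNC) and vitrin (VIT). Over the whole list 31 of the 56 were negative, the median was -0.05, and 12 had promoter cells below without overlap, against 6.99% of all genes. The count of 5 fell to 2 or 3 when any 1 of the 6 libraries was left out. No collagen chain passed (0 of 24 by edgeR).

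LAMA4 (ENSG00000112769, chr6:112108760-112254939, minus strand), the alpha chain of stromal and vessel wall laminins, had 189, 192 and 176 CPM in promoter cells and 264, 307 and 284 in U1U2 cells. NT cells, at 280 to 291 CPM, lay within the range of U1U2 cells. The log2 fold change was -0.62 ± 0.08 (adjusted p = 0.000476). LAMA1 was at 99.5, 85.4 and 85.2 CPM against 129, 142 and 125 (-0.55 ± 0.09, adjusted p = 0.00633), and here NT cells were lowest, at 69.7 to 74.4 CPM. LAMA2, the laminin chain of muscle and mesenchyme, was at 17.0, 19.2 and 15.6 CPM against 25.6, 23.9 and 23.0 (-0.49 ± 0.09, adjusted p = 0.0167). The call on LAMA2 was lost in 5 of the 6 refits that left out a library, with adjusted p up to 0.122.

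TNC, a matrix protein of remodelling tissue that weakens cell adhesion, had 77.9, 54.2 and 61.8 CPM in promoter cells and 137, 128 and 118 in U1U2 cells (-0.98 ± 0.18, adjusted p = 0.0114). Its NT libraries were spread, from 99.3 to 155 CPM, and none came down to the promoter libraries. Without promoter replicate 2 or without promoter replicate 3 the call was lost, with adjusted p up to 0.0631. VIT had a low level in both lines, 0.251 to 0.377 CPM against 0.767 to 0.906 (-1.39 ± 0.31, adjusted p = 0.0396), and its call was lost in all 6 refits without 1 library (adjusted p up to 0.188). IGSF10, a secreted protein with immunoglobulin domains, was at 3.39, 3.58 and 3.70 CPM in promoter cells and 9.31, 8.03 and 6.65 in U1U2 cells (-1.16 ± 0.18, adjusted p = 0.00503). It was higher still in NT cells, at 10.5 to 14.2 CPM. SVEP1, a large adhesion protein of the matrix, was lower too (-0.53 ± 0.12, adjusted p = 0.0427), and was also lost in all 6 (up to 0.199).

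NFASC, an adhesion molecule of nerve fibres, was at 1.95, 1.19 and 2.00 CPM in promoter cells and 4.47, 4.37 and 3.64 in U1U2 cells (-1.23 ± 0.24, adjusted p = 0.0191). NT cells lay near promoter cells here, at 1.48 to 2.43 CPM. The giant cadherin FAT3 followed the same order (-0.90 ± 0.14, adjusted p = 0.00503), with 3.76 CPM as the NT mean, against 2.98 to 4.08 in promoter cells and 6.17 to 7.10 in U1U2 cells. The call on FAT3 held in the 6 refits without 1 library, and that on NFASC was lost in 5 (adjusted p up to 0.086). The protocadherin PCDH10 (-0.47 ± 0.11) was the 1 called member of 39 integrins, cadherins and other adhesion receptors, and SLC7A14 (-0.73 ± 0.15) the 1 called member of 45 neuronal and synaptic genes. Of that neuronal list 33 were negative, with a median of -0.0931, and 12 had promoter cells below without overlap, beside 0.257% called lower and 6.99% without overlap among all genes. PCDH10 lost its call in all 6 refits without 1 library (adjusted p up to 0.187) and SLC7A14 in 5 (up to 0.126).

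In the signalling lists a handful of ligands, receptors and inhibitors passed. WNT ligands bind Frizzled receptors to stabilise beta-catenin. Of 29 tested WNT pathway genes 2 were lower, against 0.257% of all genes, and both are ligands. WNT2 had 77.7, 67.0 and 69.8 CPM in promoter cells and 95.2, 107 and 107 in U1U2 cells (-0.53 ± 0.08, adjusted p = 0.00503), with NT cells at 95.5 to 100.04. WNT2B had 5.25, 6.09 and 7.35 CPM against 11.4, 10.2 and 9.08 (-0.71 ± 0.14, adjusted p = 0.0238), and NT cells lay above both at 13.3 to 14.9. WNT2 passed in all 6 refits without 1 library, and WNT2B was lost in 4 (adjusted p up to 0.15). Over the whole list 18 genes were positive and 11 negative, with a median of 0.046.

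Of 48 genes of growth factor and receptor tyrosine kinase signalling, 1 was higher and 2 were lower, against 0.527% and 0.257% of all genes. The ligand of KIT, KITLG, was at 90.6, 109.5 and 95.7 CPM against 73.9, 59.1 and 70.8 (0.54 ± 0.12, adjusted p = 0.0433), and its NT libraries, from 72.5 to 99.4, overlapped both lines. SPRY1, an inhibitor of receptor tyrosine kinase signals, was at 1.29, 1.44 and 1.39 CPM against 2.35, 2.72 and 2.11 (-0.81 ± 0.16, adjusted p = 0.0167), and NT cells were highest at 4.05 to 4.65. The ephrin receptor EPHA4 was lower by a smaller step (-0.40 ± 0.09, adjusted p = 0.0382). GFRA1, the receptor for the neurotrophic factor GDNF, is in no list and was at 177, 163 and 153 CPM against 226, 240 and 219 (-0.48 ± 0.07, adjusted p = 0.00444), while NT cells, at 156 to 172, were level with promoter cells. GPNMB, a membrane glycoprotein of lysosomes, was the most abundant called gene, with 566, 555 and 526 CPM against 665, 780 and 777 and 808 to 899 in NT cells (-0.43 ± 0.10, adjusted p = 0.0436). The phosphodiesterase PDE1A, which breaks down cyclic nucleotides when calcium rises, was lower as well, at 23.3, 25.0 and 22.0 CPM against 34.5, 36.1 and 37.3 (-0.62 ± 0.11, adjusted p = 0.00861). Of the 6 refits without 1 library, all lost the calls on KITLG (adjusted p up to 0.251) and EPHA4 (up to 0.198), and 5 lost those on SPRY1 (up to 0.117) and GPNMB (up to 0.237). PDE1A was lost without promoter replicate 3 and without U1U2 replicate 3 (up to 0.0619), and GFRA1 in none.

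The neighbourhood of PGR held 2 of the lower genes, of 28 others tested within 5 Mb on either side (7.14%), against 0.257% of all genes. TRPC6 (ENSG00000137672, chr11:101451564-101872562, minus strand) encodes a calcium-permeable channel and, by the ends of the annotated genes, starts 742 kb from the start of PGR, the nearest tested protein-coding gene on that side. It had 13.7, 12.9 and 13.1 CPM in promoter cells, 23.5, 22.7 and 27.4 in U1U2 cells and 23.1 to 26.3 in NT cells. U1U2 and NT cells overlapped, and promoter cells lay apart below both (-0.89 ± 0.11, adjusted p = 0.000476). PGR-AS1 (ENSG00000282728, chr11:101129077-101209591, plus strand) is a non-coding RNA on the opposite strand whose start overlaps the start of PGR. It had 0.786, 0.439 and 0.557 CPM against 2.12, 1.56 and 1.15, with 1.51 to 2.38 in NT cells (-1.36 ± 0.26, adjusted p = 0.0153); it falls below the level of the naming rule and was chosen after its value was seen. Its call was lost in 4 of the 6 refits without 1 library (adjusted p up to 0.096), and that of TRPC6 in none. Because the strand setting of the counting is not known, reads of PGR-AS1 cannot be told apart with certainty from those of PGR. PGR was also lower in promoter than in U1U2 cells, though not called by edgeR. In NT cells, however, the mean of PGR was the lowest of the lines (140 CPM) and that of PGR-AS1 the highest (1.91 CPM). The position of the guides is not given in the sources used here.

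No other gene around PGR was called by edgeR. Within 5 Mb on either side 26 more genes were tested, of which 12 were negative, with a median of 0.0339. In 3 of them all promoter libraries lay below all U1U2 libraries: CNTN5 (-0.81 ± 0.32, adjusted p = 0.412), PDGFD (-0.45 ± 0.13, adjusted p = 0.176) and DYNC2H1 (-0.23 ± 0.13, adjusted p = 0.7003). With TRPC6 and PGR-AS1 these made 5 of 28, against 6.99% of all genes. ARHGAP42, the nearest tested gene on the other side apart from PGR-AS1, stood at -0.15 ± 0.09, and YAP1 at 0.16 ± 0.11. The anti-apoptotic gene BIRC3 (0.56 ± 0.16, adjusted p = 0.168) and the collagenase MMP1 (0.40 ± 0.10, adjusted p = 0.0715) had all promoter libraries above all U1U2 libraries without passing. C11orf87, further along the same arm at chr11:109422120-109429114, was lower at 10.7, 13.2 and 13.9 CPM against 25.2, 18.1 and 23.7 (-0.82 ± 0.15, adjusted p = 0.0109), and highest in NT cells at 31.0 to 40.6. Without promoter replicate 1, U1U2 replicate 1 or U1U2 replicate 3 its call was lost (adjusted p up to 0.0743). Across whole chromosomes the median log2 fold change ran from -0.0176 (chromosome 14) to 0.0451 (chromosome 22). Medians over windows of 100 tested genes ran wider, from -0.0872 (chr19:54200742-58431148) to 0.197 (chr19:281040-4724673). In MPA these windows stood at -0.0226 and -0.0375. Among the promoter and U1U2 vehicle libraries, the correlation of a library's deviations with GC content ran from -0.215 to 0.322, both in U1U2 libraries. Its part in the regional medians was not tested.

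**Figure D4:**
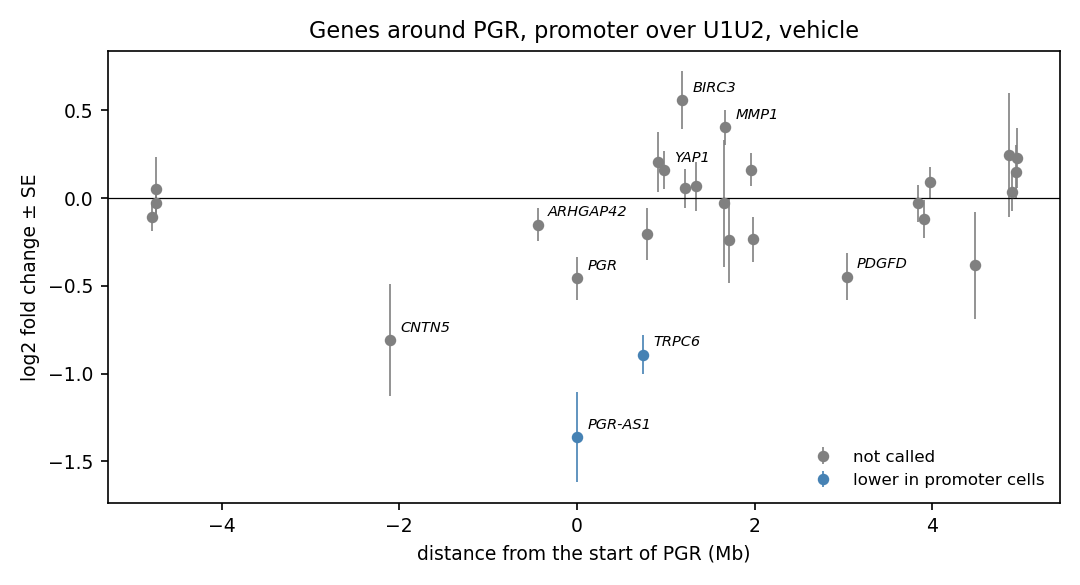
Log2 fold change of promoter over U1U2 cells in vehicle, with its SE as the error bar, against the distance of each gene's start from the start of PGR in Mb; PDGFDDN, with an SE of 0.76, is not drawn. TRPC6 at -0.89 and PGR-AS1 at -1.36 (blue) were called, and the neighbours on both sides were not called.

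Most pathways fixed for the comparison held no called gene: 21 of the 34 lists had none by edgeR. Among 31 decidual markers 15 were positive and 16 negative, with a median of -0.01. Of 28 steroid receptors and cofactors none passed, and of 28 genes induced by steroid receptors CCND1 alone did. FKBP5, a chaperone of steroid receptors and a sensitive progestin target, was at 17.9, 23.8 and 20.7 CPM in promoter cells and 18.5, 15.4 and 15.3 in U1U2 cells, overlapping and without a call (0.34 ± 0.10, adjusted p = 0.146). Interferon-stimulated genes had a median of 0.000844 over 37 genes, and genes of the BMP, TGF-beta and activin pathways one of 0.0125 over 45. Of 23 cytokines, chemokines and NF-kappa-B regulators none passed, 17 were positive with a median of 0.155, and 6 had promoter cells above without overlap, against 6.09% of all genes. A missing call at 3 libraries per group does not show that these genes were equal.

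The same lines in MPA gave a second comparison that shares no library with the first. There 51 genes were called (0.328% of 15558), 30 higher and 21 lower in promoter cells, and 14 of them were also called in vehicle in the same direction. These 14 are 11.5% of the vehicle calls and 27.5% of the MPA calls. Among the 10 with the largest vehicle difference, CHST1 (6.29 ± 0.47 in MPA), CD24 (2.50 ± 0.43), HLA-DMA (1.10 ± 0.16), SLC7A2 (0.68 ± 0.11), NRIP3 (0.42 ± 0.08) and RGCC (0.74 ± 0.09) stayed higher. TRPC6 (-0.67 ± 0.11), C11orf87 (-0.83 ± 0.15), PDE1A (-0.84 ± 0.11) and LAMA4 (-0.62 ± 0.08) stayed lower. SLC7A2 stood in MPA at 238, 261 and 276 CPM in promoter cells and 166, 168 and 151 in U1U2 cells, above its vehicle level in both lines. LAMA4 stood in MPA at 114, 112 and 107 CPM against 185, 159 and 166, below its vehicle level in both.

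Of the 40 lower genes 35 were negative in MPA as well (median -0.309), while of the 82 higher genes 42 were positive (median 0.00927). In MPA no mitotic or S-phase gene was called by edgeR or by DESeq2. By edgeR 1 and 0 of them had an unadjusted p under 0.05, against 4.23% of all genes. The medians were -0.0686 and -0.00783 against -0.0232 over all genes. CDK1 then stood at 45.5, 55.0 and 56.9 CPM in promoter cells and 67.1, 65.1 and 57.0 in U1U2 cells. The summed mitotic level in MPA was 2484 to 3099 CPM in promoter and 2756 to 3148 in U1U2 cells, which overlap, where in vehicle the lines were apart.

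The difference between the contrasts was itself tested as an interaction in the same model. It was called for 2 genes (0.0129% of those tested), DTL and LAMA2, and 804 genes (5.17%) had an unadjusted p under 0.05; DESeq2 called 58. In the mitotic list 35 of 45 genes and in the S-phase list 17 of 40 had an unadjusted p under 0.05, all of the former with a smaller difference in MPA, and none passed the adjustment over all genes. These counts use the vehicle libraries again and are no separate evidence for the vehicle difference. CCND1, for instance, was at 347, 358 and 350 CPM in promoter cells and 348, 382 and 326 in U1U2 cells in MPA, where the libraries overlapped.

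**Figure D5:**
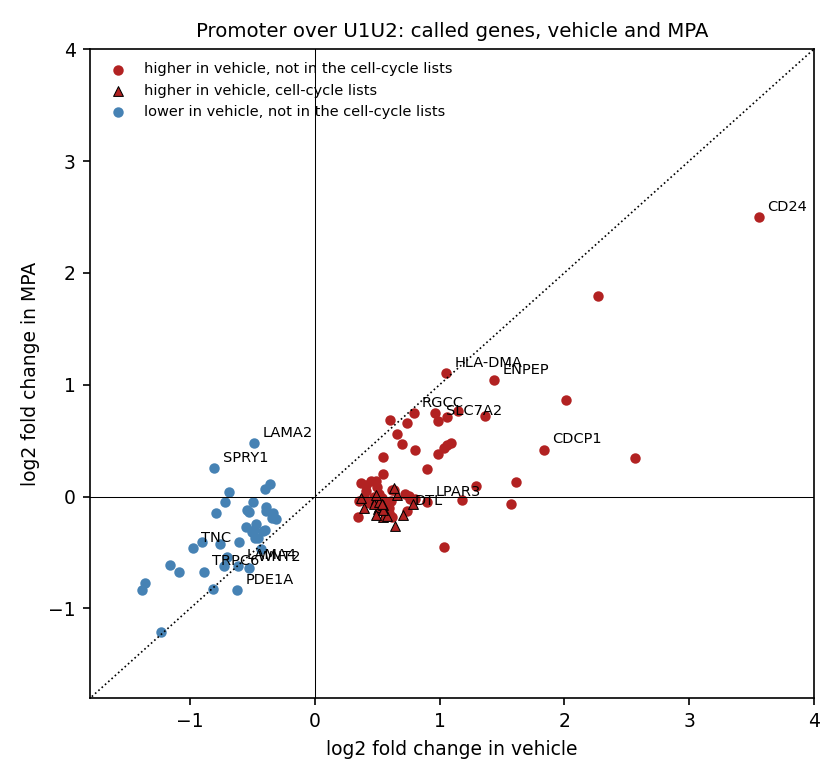
Log2 fold change of promoter over U1U2 cells in MPA (vertical axis) against that in vehicle (horizontal axis) for the genes called in vehicle, red for higher and blue for lower, with triangles for members of the mitotic and S-phase lists; the dotted line marks equal differences. CHST1, at 5.71 and 6.29, lies outside the axes; the triangles lie near 0 in MPA, and LAMA2 lies above 0 in MPA and below 0 in vehicle.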

How the data were processed

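The authors deposited raw counts, whole-number read counts per gene for 18 libraries; a second deposited table, of log2 CPM made from those counts, was not used. Per the submitters' processing notes, the tools were edgeR 4.2.2, R 4.4.1 and STAR 2.6.0c, on hg38; the counter, its strand setting and the annotation are not given in the sources used here. Per the labels' protocols, RNA was DNase-treated and libraries came from a stranded poly(A) kit. The labels give 1 batch.

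Of 78724 genes, 40165 had a count and 15558 passed filterByExpr (minimum count 10). edgeR 4.0.16 in R 4.3.3 fitted a quasi-likelihood model with TMM factors and 1 term per group to all 18 libraries; p-values were adjusted by Benjamini-Hochberg over all tested genes, and called means under 0.05. CPM values use TMM-scaled library sizes. The script was tested on simulated data. Positions are from GENCODE 29 (94.5% of tested genes matched). Of the 122 called genes 24 overlap a tested gene on the other strand. DESeq2 1.42.0, limma 3.58.1 (voom), other scalings, filters and sets of samples were the alternatives. Replicates differed beyond sampling noise in every pair (chi-square per degree of freedom at least 10.2).

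Named genes were, the 20 largest changes in each direction among calls with a symbol, no overlap and a mean level (log2 CPM) of 1 or more; the 10 most abundant; the 10 largest also called in MPA; PGR; and members of the 34 lists. Others are named as chosen afterwards or because a stated count or threshold involves them. The comparison and the lists were chosen with earlier results of these data known.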

Additional observations from a re-analysis of the deposited data

Results flagged for a closer look

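For 2 genes the difference between the lines itself differed between MPA and vehicle in edgeR's interaction test. DTL went from 0.74 in vehicle to -0.13 in MPA, a difference of -0.87 ± 0.11 (adjusted p = 0.00837). In MPA it stood at 19.8, 21.1 and 22.8 CPM in promoter cells and 23.6, 23.2 and 23.1 in U1U2 cells, so that the order of the lines was reversed without overlap, although the MPA difference was not called.

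LAMA2 went from -0.49 in vehicle to 0.48 in MPA, where it was called higher in promoter cells (adjusted p = 0.0283), a difference of 0.96 ± 0.13 (adjusted p = 0.00837). Its MPA libraries were at 59.0, 56.6 and 56.4 CPM in promoter cells and 40.2, 38.6 and 44.8 in U1U2 cells. Both interactions missed the threshold without promoter MPA replicate 1 (adjusted p = 0.0510 for both genes) and without U1U2 MPA replicate 2 (adjusted p = 0.0508 for DTL and 0.0509 for LAMA2).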

How the results depend on the processing

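Against 122 calls in vehicle (82 higher, 40 lower), DESeq2 gave 265 (158 and 107), GC and length offsets 293 (200 and 93), a test of a change over 1.2-fold 17 (13 and 4), and the 2 groups fitted alone 11 (8 and 3). Leaving out both U1U2 replicate 1 and promoter replicate 3, chosen after seeing the data, also left 11 (8 and 3). Leaving out each library gave 39 to 64 (26 to 46 higher, 13 to 19 lower). The 122 genes kept their sign in each of these fits, except that with the offsets a kept sign was counted for 121. Whether the remaining gene changed sign or did not enter the fit with the offsets was not separated.

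The mitotic count of 14 became 26 without the filter, 24 with DESeq2, 23 with the offsets, 0 with the 2 groups alone, 0 in the 1.2-fold test, 0 without both libraries, and 1 to 4 without each. The S-phase count of 5 became 12, 9, 0, 0 and 0 with DESeq2, the offsets, the 2 groups, the 1.2-fold test and without both, and 1 to 3 without each. The matrix count of 5 became 1 with the 2 groups, 1 in the 1.2-fold test, 1 without both, and 2 to 3 without each.

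In MPA 51 calls became 88 with DESeq2, 90 with the offsets, 16 with the 2 groups, and 15 to 40 without each. The 2 interactions became 18 without the filter, 5 with the stricter filter, 58 with DESeq2, 32 with the offsets, 0 without both libraries, and 0 to 3 without each; the cause of these shifts was not tested.

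In vehicle the deviations of same-numbered promoter and U1U2 libraries from their group means correlated at -0.47, -0.0877 and -0.373. Such deviations are centred within groups of 3, so these values cannot exclude an effect shared by replicate number. With the replicate block 69 genes were called (48 higher, 21 lower), 8 of them mitotic and 3 matrix genes, 25 in MPA, and 0 interactions. No named gene changed direction in any fit.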

Other observations

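Of the following higher genes ENPEP and ITGAX were chosen here after their values were seen, and TIE1 and HOXC8 are called members of the lists. ENPEP, a membrane aminopeptidase that cleaves angiotensin, was at 2.07, 2.89 and 3.62 CPM in promoter cells and 1.01, 1.12 and 1.02 in U1U2 cells (1.44 ± 0.22, adjusted p = 0.00503). ITGAX, an integrin chain known from myeloid cells, was at 2.80, 2.07 and 2.78 CPM against 1.06, 1.16 and 0.799 (1.36 ± 0.21, adjusted p = 0.00503), with 2.33 to 2.59 CPM in NT cells. TIE1, a receptor known from endothelium, was at 0.786, 1.19 and 0.863 CPM against 0.230, 0.281 and 0.160 (2.01 ± 0.38, adjusted p = 0.0158), while the endothelial marker CDH5 had at most 1 count per library. TIE1 was the 1 called gene of 3 tested endothelial markers, against 0.527% of all genes called higher. HOXC8, a patterning gene, was at 13.8, 14.3 and 18.3 CPM against 11.4, 9.03 and 9.11 (0.66 ± 0.15, adjusted p = 0.0433). It was the 1 called gene of 29 tested HOX genes, where 0.527% of all genes were called higher. ENPEP and ITGAX passed in all 6 refits without 1 library, while TIE1 and HOXC8 were each lost in 5 (adjusted p up to 0.134 and 0.229).

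Genes encoded in the mitochondrial genome were not called, but 12 of 13 were negative in vehicle (median -0.158) and 11 of 13 positive in MPA (median 0.0764). In vehicle the promoter and U1U2 libraries overlapped in all 13. The mitochondrial share of the counts was 1.63%, 1.74% and 2.15% in promoter replicates 1 to 3. In U1U2 replicates 1 to 3 it was 2.53%, 1.8% and 1.79%, so that the highest share was in 1 U1U2 library and the other libraries overlapped.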
